A study of Mus musculus with 2 samples.

Results

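The Slc25 genes encode the mitochondrial carrier family, whose members move metabolites, nucleotides, cofactors and ions across the inner mitochondrial membrane. Members were taken as the transcripts with a gene symbol of Slc25a followed by a number and the class protein-coding in GENCODE M21. The rule found 119 transcripts of 47 genes among 121429 transcripts in the table, of which 49490 were protein-coding. No measured value entered the rule. Wild-type mouse embryonic stem cells of the XY line DTCM23/49, grown without feeders on gelatin in medium with serum and leukemia inhibitory factor, received 200 µM 4-thiouridine (4sU) for 10 min. 4sU is a uridine analogue that enters new RNA, which was then separated through biotin and streptavidin beads. The labeled RNA and the unlabeled RNA left behind were each sequenced as 1 library of replicate 1, so nothing below has a replicate check and no test was made. One label field describes the second library as preexisting RNA and a different field as total RNA. Here it stands for unlabeled RNA. The values are an exon value and an intron value per transcript in the deposited unit, called TPM, although the columns add up to 10 times what TPM would. The table gives no read counts, so the depth is unknown. The unit is relative to the library, and in RNA from bulk cells fewer cells of a type and less RNA per cell cannot be told apart. Of 8 markers of pluripotent cells, 8 had a mean exon value above 1, while 3 of 6 fibroblast markers did, with a highest mean of 10.2 and 2 markers at 0 in both libraries. All 3 neural markers were above 1, and Tubb3 reached 145.

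Carriers share a fold of membrane helices arranged around a central binding site, which opens in turn to the matrix and to the space between the membranes. Most exchange one compound for another, as the ADP/ATP carriers do when they export ATP and import ADP. The proteins are made in the cytosol and inserted into the inner membrane by the TIM22 complex, after passage through the TOM complex.

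Several members have near-identical copies in the genome, and this bears on how their values can be read. Slc25a5, an ADP/ATP carrier on chromosome X, had 6 pseudogenes that held at least 5% of its 50-base words, with 93.7 to 98.1% identity over the aligned bases. The stretch below lies in exon 2 of 4 of Slc25a5, within its coding sequence, at chrX:36796843-36796962 on the plus strand of GRCm38, and is 120 bases long. It is shown because reads from such a stretch can fit more than one row of the table. The sequences are written 5′ to 3′, and capitals mark bases that differ from Slc25a5. Slc25a4 is the paralog at chr8:46209389-46209508 on the minus strand, Slc25a31 is the testis ADP/ATP carrier on chromosome 3, and the Gm names are processed pseudogenes.
Slc25a5: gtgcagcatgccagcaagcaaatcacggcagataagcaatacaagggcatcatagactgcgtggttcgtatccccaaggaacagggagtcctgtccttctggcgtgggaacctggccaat
Slc25a4: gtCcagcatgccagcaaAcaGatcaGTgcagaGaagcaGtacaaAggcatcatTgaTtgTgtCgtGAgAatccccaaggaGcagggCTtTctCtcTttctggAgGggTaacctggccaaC
Slc25a31: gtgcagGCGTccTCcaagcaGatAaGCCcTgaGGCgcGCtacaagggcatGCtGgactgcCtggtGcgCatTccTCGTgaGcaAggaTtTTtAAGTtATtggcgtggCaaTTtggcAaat
Gm5560: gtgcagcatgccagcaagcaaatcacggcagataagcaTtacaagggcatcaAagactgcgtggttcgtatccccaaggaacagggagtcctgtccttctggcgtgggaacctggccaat
Gm5529: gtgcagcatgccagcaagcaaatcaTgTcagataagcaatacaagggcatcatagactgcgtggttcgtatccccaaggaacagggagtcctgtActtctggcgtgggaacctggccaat
Gm5256: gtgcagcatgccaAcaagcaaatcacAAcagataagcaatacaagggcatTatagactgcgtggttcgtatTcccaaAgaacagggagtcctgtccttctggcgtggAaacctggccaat
Gm7560: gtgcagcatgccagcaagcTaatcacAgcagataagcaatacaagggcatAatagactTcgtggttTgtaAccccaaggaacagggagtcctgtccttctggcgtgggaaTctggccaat
Gm5560 differed from Slc25a5 at 2 of the 120 bases and Gm5529 at 3, while Gm5256 and Gm7560 each differed at 7. The functional paralogs differed at 25 bases for Slc25a4 and 43 for Slc25a31. The other 2 pseudogenes, Gm6425 and Slc25a5-ps, are not shown because their alignment has a gap in this stretch, so that bases cannot be compared one to one. Slc25a5-ps had the highest labeled exon value of the copies, 793. The copies carried values of their own. The 6 pseudogenes of Slc25a5 had exon values of 168 to 793 in labeled and 137 to 587 in unlabeled RNA, against 907 and 759 for Slc25a5 itself. Their summed exon values were 2615 and 2099, above those of the gene. How reads that fit several of these rows were shared out is not given in the sources used here, so the level of Slc25a5 is uncertain. Of the other members, Slc25a36, Slc25a37 and Slc25a40 also had at least 1 copy by the same rule, which makes 4 genes. The search for copies was added after the values were seen.

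The family was dominated by the carriers of oxidative phosphorylation. Slc25a3, the phosphate carrier, Slc25a4 and Slc25a5 held 59.9% of the family's summed exon value in labeled RNA and 51.5% in unlabeled RNA. The whole family made up 0.171% of the exon value of all protein-coding transcripts in labeled RNA and 0.141% in unlabeled RNA. Of the 47 genes, 41 had a mean of the libraries' summed exon values above 1, 32 above 10 and 8 above 100.

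**Figure D1:**
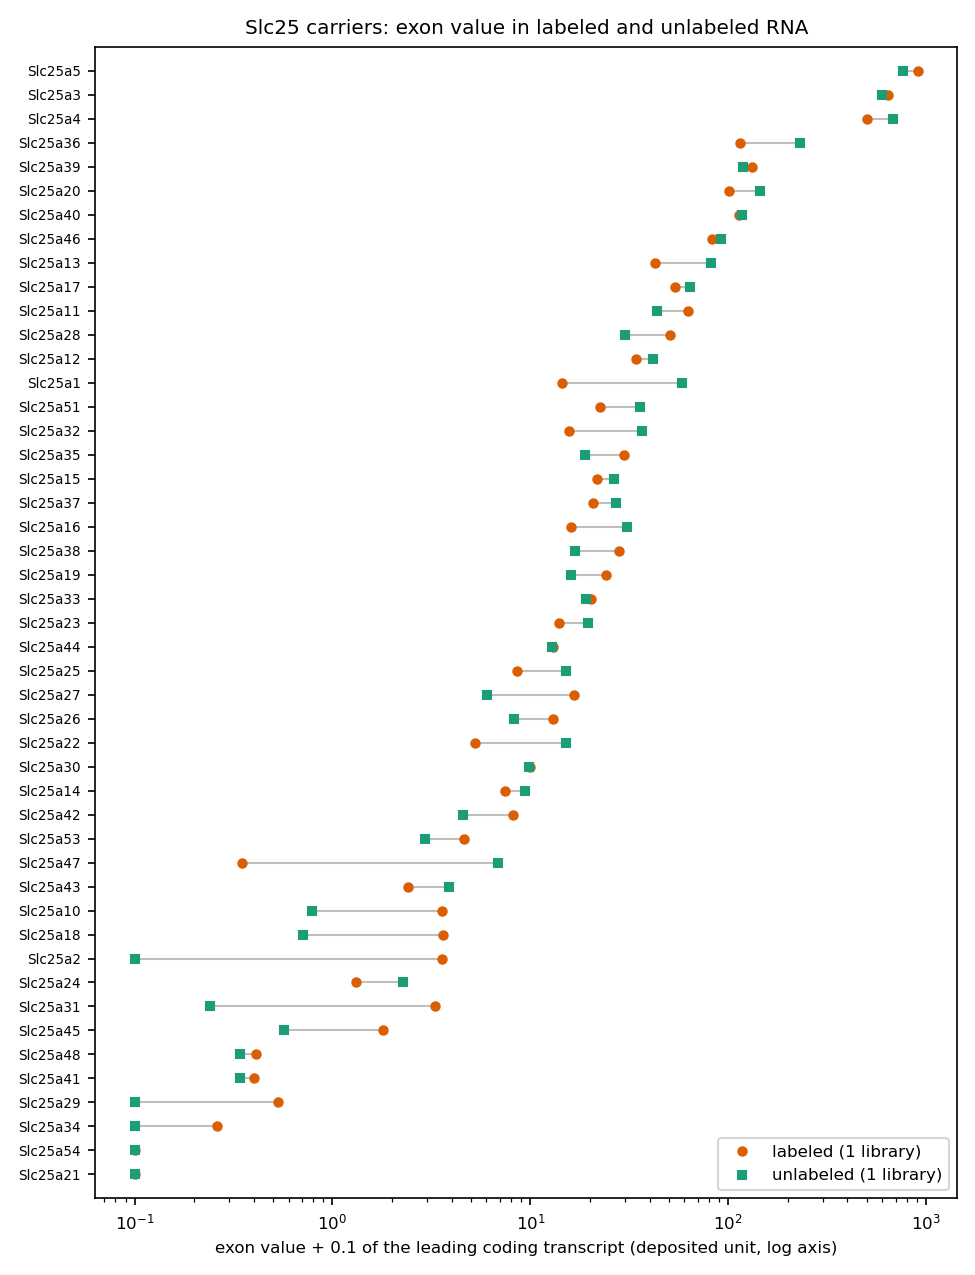
Exon value of the leading coding transcript of each of the 47 Slc25 genes, in the deposited unit plus 0.1 on a log axis, with 1 circle for the labeled and 1 square for the unlabeled library. Slc25a5, Slc25a3 and Slc25a4 lie at the top, between 504 and 907, and Slc25a21 and Slc25a54 lie at 0 in both libraries.

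Slc25a3 had the highest summed exon value, 1692 in labeled and 1470 in unlabeled RNA over 3 coding transcripts. Its leading transcript, the one with the gene's highest mean exon value, held 642 and 599.9 of it, and the isoforms of a gene may each count reads from shared exons. By the leading transcript alone Slc25a5 came first, so these genes changed places with the way of counting. Slc25a4, the ADP/ATP carrier of heart and muscle, had 504 in labeled and 682 in unlabeled RNA from its only coding transcript. Slc25a31 had 3.21 and 0.14, far under its paralogs in both libraries.

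Below these came carriers of cofactors and glutathione. Slc25a39, which brings glutathione into the matrix, had summed exon values of 360.2 in labeled and 540.4 in unlabeled RNA, and its paralog Slc25a40 had 263 and 273. Slc25a36, a pyrimidine nucleotide carrier, had 296 and 546, and its paralog Slc25a33 had 20.2 and 19.0 in its leading transcript. Slc25a20, the carnitine-acylcarnitine carrier of fatty acid oxidation, had 101 and 145. Slc25a13, an aspartate-glutamate carrier of the malate-aspartate shuttle, had 73.8 and 137. Slc25a51, the NAD carrier, had 101 and 96.6, and Slc25a46, an outer membrane protein of mitochondrial dynamics, had 82.8 and 92.0. These are the 10 genes with the highest sums, and 9 of the 10 were also among the 10 highest by leading transcript. The order within the list cannot be set against replicate spread.

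At the other end, Slc25a21, the oxodicarboxylate carrier, and Slc25a54 were listed at 0 in the exons of both libraries. Both had intron values above 0, 2.47 and 0.79 for Slc25a21 and 1.09 and 0.27 for Slc25a54, in labeled and unlabeled RNA. An exon value of 0 in both libraries beside an intron value above 0 in both was found in 6 of 118 members with an intron value, or 5.08%, against 8.99% of all protein-coding transcripts. Slc25a2 and Slc25a29, carriers of ornithine and of basic amino acids, and Slc25a34 were at 0 in the unlabeled exons, with 3.49, 0.43 and 0.16 in the labeled exons. Slc25a41, an ATP-Mg/phosphate carrier, and Slc25a48 were at 0.30 and 0.31 in labeled and each at 0.24 in unlabeled exons.

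Paralogs that carry the same substrate were unequal in level. For the mitoferrins, which import iron, the leading transcript of Slc25a28 had exon values of 50.6 in labeled and 29.8 in unlabeled RNA, and that of Slc25a37 had 20.6 and 26.9. By these transcripts Slc25a28 was the higher of the pair in both libraries, by little in unlabeled RNA. With transcripts outside the coding class included, the mean of the libraries' summed exon values was 56.7 for Slc25a37 and 40.2 for Slc25a28, the reverse order. Of the ATP-Mg/phosphate carriers, Slc25a23 had 13.9 and 19.5 and Slc25a25 had 8.48 and 15.1, while Slc25a24 had 1.22 and 2.17. Of the glutamate carriers, Slc25a22 had 5.17 and 15.1 and Slc25a18 had 3.50 and 0.61, so Slc25a22 was the higher in both libraries, with the wider gap in unlabeled RNA. The ornithine carrier Slc25a15 had 21.7 and 26.5, far above Slc25a2. Among the members like uncoupling proteins, Slc25a27 had 16.4 and 5.97, Slc25a30 had 9.86 and 9.75, and Slc25a14 had 7.35 and 9.30. These levels are per length of transcript and come from leading transcripts. By coding sums some orders changed. Slc25a25 had 41.6 and 72.1 and Slc25a23 had 47.2 and 44.4, so Slc25a25 was the higher in unlabeled RNA. Slc25a14 had 25.4 and 30.1, above Slc25a27 and Slc25a30 in both libraries. The mitoferrins, the glutamate carriers and the ornithine carriers kept their order by coding sums.

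Which RNAs weighed more in the new than in the old pool was read from the log2 ratio of labeled to unlabeled exon value. Since each library was scaled on its own, the ratio was set relative to the median of all 33401 protein-coding transcripts with a mean exon value above 1 and both exon values above 0, which was -0.38. Of the members, 91 of 40 genes could be used. Their median relative log2 ratio was 0.21, with quartiles of -0.44 and 0.90, where all transcripts had 0 by construction, with quartiles of -0.66 and 0.82. Past 2-fold on the higher side were 20 members, or 22.0%, against a background of 21.3% of all transcripts. Past 2-fold on the lower side were 10 members, or 11.0%, against 14.6%. Both shares were near the background. Counted by leading transcripts around the same centre, 11 of 40 genes were past 2-fold higher, against 23.6%, and 3 were past it lower, against 13.6%. Around the median of leading transcripts, which lay 0.07 higher, 8 of 40 were past it higher and 3 lower. The genes that fell inside the line were Slc25a26, Slc25a35 and Slc25a53, at 1.05, 1.03 and 1.05 around the first centre. The split depended on the centre. When leading transcripts with a mean exon value above 100 set the centre, which moved by -0.35, 28 members were higher and 2 lower, so that 93.3% of calls were higher in place of 66.7%. With coding transcripts summed per gene, 7 genes were higher and 2 lower, or 77.8%. A lower centre raises the relative ratio of every transcript by the same amount. The shares over all transcripts around these other centres are not given, so nothing particular to the family is read from the counts around them.

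In this the carriers lay near the median of all protein-coding transcripts, while other nuclear genes for mitochondria lay above it. Transcripts of mitochondrial ribosomal proteins had a median relative log2 ratio of 1.07 over 153 transcripts, and those of the oxidative phosphorylation subunits had 1.51 over 194. The sets also differed in level and length. The median of the mean exon value was 14.7 for the carriers, 57.9 for the ribosomal proteins and 114 for oxidative phosphorylation. The median unspliced length was, in the same order, 12844, 6011 and 6948.5 bases. These are descriptions of 2 libraries, and the difference was not tested.

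**Figure D2:**
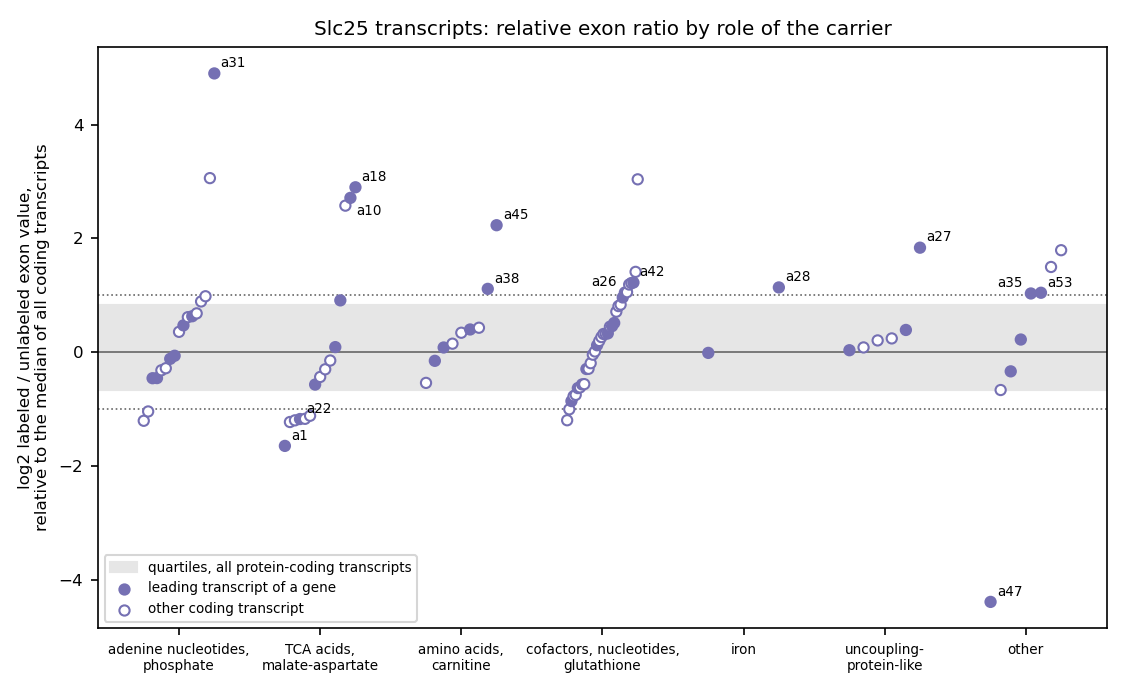
Relative log2 ratio of labeled to unlabeled exon value for 91 Slc25 transcripts, grouped by the role of the carrier. Filled points are leading transcripts, the grey band spans the quartiles of all protein-coding transcripts, and the dotted lines mark 2-fold; Slc25a31 lies highest at 4.90 and Slc25a47 lowest at -4.38.

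Among leading transcripts with a mean exon value of at least 10, Slc25a27 stood highest. Its exon values of 16.4 in labeled and 5.97 in unlabeled RNA gave a relative log2 ratio of 1.84, or 3.58-fold. Slc25a28 followed with a relative log2 ratio of 1.14, or 2.20-fold. Slc25a38, which imports glycine for heme synthesis, had exon values of 27.9 and 16.7 and a relative log2 ratio of 1.11. Its other coding transcript had 3.24 and 6.1 and a relative log2 ratio of -0.54, on the other side of the centre. The lowest was Slc25a1, the citrate carrier that supplies cytosolic acetyl-CoA, with exon values of 14.3 in labeled and 58.0 in unlabeled RNA. Its relative log2 ratio was -1.64, so it weighed 3.12-fold more in the unlabeled library. Slc25a22 had a relative log2 ratio of -1.17, and 4 of its transcripts lay between -1.11 and -1.19. A further transcript of Slc25a22 had 8.03 and 1.75 and a relative log2 ratio of 2.58, on the other side of the centre. Slc25a32, which carries folate, had exon values of 15.6 and 36.7 and a relative log2 ratio of -0.86, inside the 2-fold lines. With either pseudocount, the other centre or leakage subtracted, Slc25a27 stayed on the higher side (1.65 to 2.19) and Slc25a1 on the lower (-2.56 to -1.29), both past 2-fold. Slc25a28 (1.07 to 1.49) and the leading transcript of Slc25a38 (1.03 to 1.47) also stayed past it. Slc25a22 came inside the line with the other centre, at -0.82, and Slc25a32 passed it with leakage subtracted, at -1.16.

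At low levels the ratios spread more widely. Slc25a31 had the highest relative log2 ratio of all members, 4.90, from exon values of 3.21 and 0.14, and a pseudocount of 1 brought it to 2.21. Slc25a47, a carrier best known from liver, had the lowest, -4.38, from 0.25 and 6.76, and the pseudocount brought it to -2.31. Slc25a18 stood at 2.90 and Slc25a10, the dicarboxylate carrier, at 2.71, with unlabeled exon values of 0.61 and 0.69. Slc25a45 stood at 2.23, with 1.70 and 0.47. With no counts behind them, these ratios have no known error.

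By role, the 34 transcripts of carriers of cofactors, nucleotides and glutathione had 7 past 2-fold higher and 1 lower. Over all protein-coding transcripts 21.3% were higher and 14.6% lower, and nothing particular to a role is read from these counts. Of the higher ones, 3 belonged to Slc25a51, with relative log2 ratios of 1.19 to 1.41. The more abundant transcripts of Slc25a51, the leading one among them, had -0.29 and 0.02. Another 2 of the higher ones belonged to Slc25a42, which imports coenzyme A. Carriers of tricarboxylic acid cycle acids and the malate-aspartate shuttle had 3 of 15 transcripts higher and 6 lower, and the lower ones belonged to Slc25a1 and Slc25a22. Carriers of adenine nucleotides and phosphate had 2 of 17 higher and 2 lower. Those of amino acids and carnitine had 2 of 9 higher and 0 lower, and the iron carriers and the members like uncoupling proteins 1 higher each, of 2 and 6. Of the remaining 8 transcripts, 4 were higher and 1 was lower, and 3 of the higher ones were the transcripts of Slc25a53 above the minimum, out of 5, with relative log2 ratios of 1.05 to 1.79. Members of a gene share exons and are not independent.

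Of the aspartate-glutamate carriers, Slc25a12 lay near the centre and the leading transcript of Slc25a13 lay below it. Slc25a12 had exon values of 34.2 in labeled and 41.7 in unlabeled RNA and a relative log2 ratio of 0.09. The leading transcript of Slc25a13 had 42.5 and 81.6 and a relative log2 ratio of -0.56. Slc25a11, the oxoglutarate carrier that completes the shuttle, had 62.8 and 43.3 and a relative log2 ratio of 0.91. None of the leading transcripts of these 3 genes passed 2-fold, although Slc25a11 did with the other centre, at 1.27, and with leakage subtracted, at 1.04.

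Isoforms of a gene did not always move together. Of 19 genes with at least 2 transcripts above the minimum, 10 had relative log2 ratios within a range under 1. The same share over all genes is not given, so this count describes the carriers only and sets them apart from no other genes. The range was 0.01 in Slc25a40 and 0.21 in Slc25a3. It was 4.26 in Slc25a25, whose transcripts had labeled exon values of 2.63 to 8.96 and unlabeled exon values of 0.41 to 16.9. In Slc25a39, 8 transcripts had relative log2 ratios from -1.19 to 0.52.

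Transcripts outside the coding class were also measured for the same genes. Those with a retained intron had a median relative log2 ratio of 0.60 over 41 transcripts, against 0.54 over all of that class in the table. Those marked for nonsense-mediated decay had -0.31 over 15, against 0.03. In 13 of the 47 genes the summed exon value outside the coding class exceeded the coding sum in labeled RNA. No share over all genes stands beside this count, so nothing particular to the family is read from it. For Slc25a36 it was 583 against 296, and for Slc25a1 it was 83.7 against 32.1.

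The study's measure of RNA processing is the ratio of intron to exon value, which falls as introns are removed. Among 87 members with all 4 values above 0, the median ratio was 0.598 in labeled RNA and 0.112 in unlabeled RNA. Over all 31386 protein-coding transcripts it was 0.570 and 0.111. With 1 transcript per gene the family stood at 0.578 and all genes at 0.473 in labeled RNA. Mitochondrial ribosomal protein transcripts had a median labeled ratio of 0.224, and oxidative phosphorylation transcripts had 0.118, both below the carriers. These sets also had higher median exon values and shorter median unspliced lengths than the carriers, and were not matched for either.

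Abundant carriers were among those with the lowest labeled intron to exon ratios. Slc25a5 had intron values of 13.2 in labeled and 1.46 in unlabeled RNA and ratios of 0.0145 and 0.00192. The leading transcript of Slc25a39 had a labeled ratio of 0.0301 and an unlabeled intron value of 0, and that of Slc25a11 had 0.0552 and also 0. Slc25a4 followed with 0.0560 and 0.00553. Slc25a3 had a labeled ratio of 0.0915 and an unlabeled ratio of 0.0740, so its ratio hardly differed between the pools.

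Slc25a12 had the highest labeled intron to exon ratio among leading transcripts with a mean exon value of at least 10. Its intron values of 80.5 in labeled and 10.6 in unlabeled RNA gave ratios of 2.35 and 0.255. Transcripts of Slc25a12 outside the coding class had summed exon values of 347 in labeled and 432 in unlabeled RNA. These are far above the 34.2 and 41.7 of its only coding transcript, whose exon value alone enters the ratio. How reads were shared among these transcripts is not given, so the ratio of Slc25a12 is uncertain. Its paralog Slc25a13, with intron values of 28.5 and 5.65, had 0.672 and 0.0692. Slc25a33 had 2.15 in labeled RNA and Slc25a36 had 0.566, and Slc25a26, which imports S-adenosylmethionine, had 1.62. Transcripts outside the coding class held 74.1% of the labeled exon value of Slc25a26, 66.3% in Slc25a36 and 63.0% in Slc25a13. Their ratios are uncertain for the same reason as that of Slc25a12, while Slc25a33 had 0% outside that class. The glutathione carriers were far apart by leading transcripts, with 0.912 for Slc25a40 beside 0.0301 for Slc25a39. Across their coding transcripts the labeled ratio ran from 0.912 to 2.15 in Slc25a40 and from 0.0301 to 0.360 in Slc25a39. The size of the gap thus depended on the transcript taken. Of the mitoferrins, Slc25a28 had 0.403 and Slc25a37 had 0.499. At low levels the ratio went higher still, to 7.91 in Slc25a24.

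**Figure D3:**
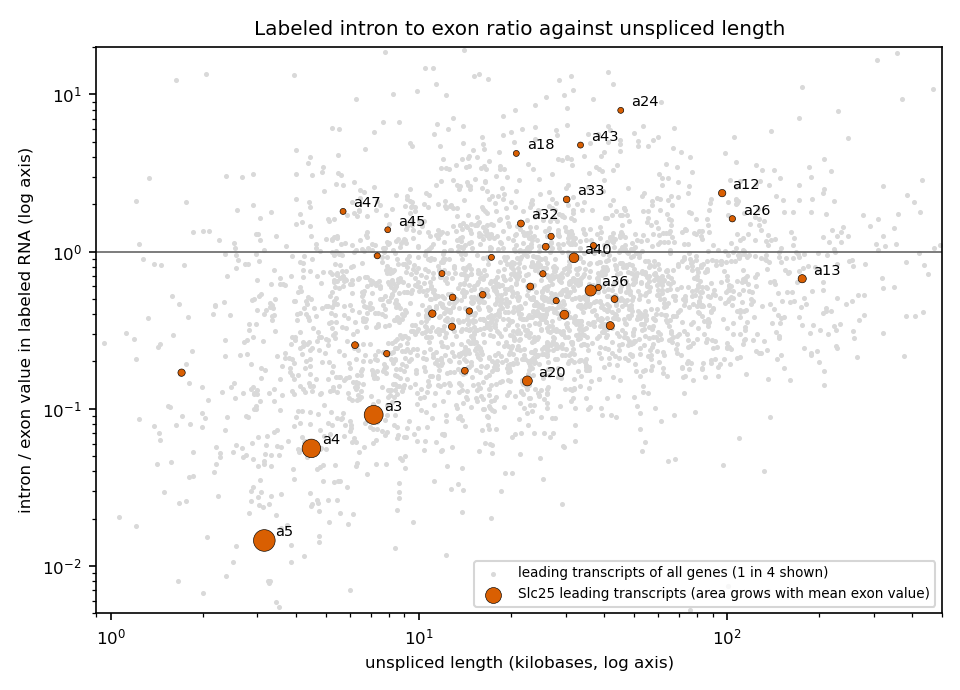
Labeled intron to exon ratio against unspliced length, both on cropped log axes, for 38 leading Slc25 transcripts, with the area of a point growing with the mean exon value and a sample of all genes in grey. The large points of Slc25a5, Slc25a4 and Slc25a3 lie at short lengths and low ratios, and Slc25a12 and Slc25a26 lie above 1 at long lengths.

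Long carriers tended to have more intron signal. Across 40 genes, each by its highest transcript with all values above 0, Spearman's correlation of the labeled intron to exon ratio was 0.549 with unspliced length and -0.62 with the mean exon value. Over 12652 genes these were 0.278 and -0.592. Level and length were not separated here, and all points come from the same library. For the relative log2 exon ratio over 40 genes, the correlations were -0.2 with unspliced length and -0.147 with the uridine share of the spliced transcript.

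The study's model takes new RNA to be made unspliced, processed at one rate and degraded at another, and it requires a labeled ratio under 1 and above the unlabeled ratio. The labeled ratio was 1 or more in 27 of 87 members, or 31.0%, against 28.2% of all transcripts. It was under 1 but not above the unlabeled ratio in 2 members, Slc25a31 and a transcript of Slc25a22, or 2.3%, against 5.1%. Together 29 members, or 33.3%, fell outside the model, against 33.3% of all transcripts. The unlabeled ratio was 1 or more in 7 members, or 8.05%, against 8.58%. Of the 58 compatible members of 28 genes, 31 had no exact solution, or 53.4% against 57.2%. There was 1 solution in 19, or 32.8% against 34.1%, and there were 2 in 8, or 13.8% against 8.63%. Where none existed, the closest rates were used, as in the study.

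The median degradation half-life over the 58 compatible members was 12.7 min, with quartiles of 7.58 and 36.5 min, against 19.0 min over all compatible transcripts. The median processing half-life was 3.81 min against 3.88 min. Reading the second library as total RNA moved the degradation half-life of members to 38.7 min and that of all transcripts to 46.4 min. The estimates for abundant carriers rest on approximate solutions. Slc25a5 had 215 min, Slc25a3 66.9 min and Slc25a4 64.9 min, all 3 without an exact solution. With both variables left free in the approximation, these became 8.54, 2.99 and 6.49 min. Read against total RNA, the half-lives of Slc25a5, Slc25a3 and Slc25a4 were 48.8, 4.17 and 66.7 min, so the order of the genes changed. Among leading transcripts with 1 exact solution, that of Slc25a40 had a degradation half-life of 79.6 min, Slc25a13 44.4 min, Slc25a15 13.7 min, Slc25a36 4.83 min and Slc25a27 2.82 min. With the second library read as total RNA these became, in the same order, 96.1, 107, 46.3, 22.9 and 7.35 min. They are values of single transcripts, and isoforms with 1 exact solution could differ widely. The other coding transcript of Slc25a13 had 97.4 min, and those of Slc25a14 ran from 5.38 to 32.2 min. The highest such value was 536 min, in a transcript of Slc25a35. The labeled ratio of Slc25a40 was 0.912, and the study expects lower precision close to 1.

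Some carriers lie side by side in the genome. Slc25a29 and Slc25a47 on chromosome 12 are 162 bases apart on opposite strands, and Slc25a41 and Slc25a23 on chromosome 17 are 2056 bases apart on the same strand. Slc25a54 and Slc25a24 on chromosome 3 are 6461 bases apart, and Slc25a43 and Slc25a5 on chromosome X are 18448 bases apart. In the last pair Slc25a43 had exon values of 2.31 and 3.78 beside 907 and 759. Of the 47 genes, 23 overlapped another annotated gene, among them Slc25a35 with 1882 bases of Rangrf on the opposite strand, and values of such genes may include reads of the partner.

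The genes that import and insert carriers were given from a separate list. Of 10, 6 had a leading transcript past 2-fold higher in relative log2 exon ratio and 0 lower, with a median of 1.18, where 23.6% of all genes were higher and 13.6% lower by leading transcripts. These shares are also the background of the counts that follow. Timm9 and Timm10, the chaperones that guide carriers across the intermembrane space, had relative log2 ratios of 1.88 and 1.75. Timm22, the insertion channel, had 1.27, while Tomm70a, the receptor for carriers on the outer membrane, had -0.60. Of the outer membrane channels, Vdac1 had exon values of 412 in labeled and 1293 in unlabeled RNA and a relative log2 ratio of -1.27, and it was the 1 of 3 past 2-fold. Of 5 carrier genes under other symbols 3 could be used, and Ucp2, an uncoupling protein, was past 2-fold lower at -1.02. Of 8 inner membrane transporters of other families, 2 were higher and 2 lower. Mcu, the calcium uniporter, had -1.68 and Mpc1, a subunit of the pyruvate carrier, had 1.34.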

How the data were processed

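Reads from labeled and unlabeled RNA (1 library each) that did not map to ribosomal RNA were aligned by the authors to exons and introns with STAR, listed as 2.5.0 in the submitters' processing notes, and quantified with RSEM. The deposited values are a relative signal per transcript, called TPM, in columns that sum to 10 times a TPM column. The submitters' notes name mm10 and GRCm38, and the study used an earlier annotation than the GENCODE M21 used here for biotypes, positions and sequences. No read counts were given, so the depth and the precision of a value are unknown.

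Members needed a mean exon value above 1 and values above 0, with no pseudocount. Intron to exon ratios, classes and rates followed the study's equations on a grid of 4000 points. The solver was tested on simulated rates. Copies were sought by shared words of 50 bases and alignment. Shares were set beside those of all protein-coding transcripts. Genes were named by rule: the 10 highest sums, the 3 highest and 3 lowest leading transcripts with a mean exon value of at least 10, and sets of paralogs. Members and lists were chosen with earlier results of these data known. Alternatives were other minimums, pseudocounts of 0.1 and 1, other centres, 1 value per gene, leakage, and other solutions. Scripts ran in Python 3.11.15 with scipy 1.17.1, pandas 2.3.3, numpy 2.4.6 and, for plots, matplotlib 3.10.9.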

Additional observations from a re-analysis of the deposited data

How the results depend on the processing

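No paired analysis was possible because each pool has 1 library and no result comes from a test. The number of members past 2-fold higher was 20 of 91 members, and it became 11 of 59 with a mean exon value above 10, 8 of 40 with 1 transcript per gene and 7 of 40 with coding transcripts summed per gene. The number past 2-fold lower was 10, and the same settings gave 5, 3 and 2. These settings leave fewer members and also move the centre, from -0.38 to -0.53, -0.30 and -0.26. Centring on leading transcripts with a mean exon value above 100 gave 2 lower and moved the median relative log2 ratio from 0.21 to 0.56. With a mean exon value above 10, the median labeled intron to exon ratio was 0.423 and the share outside the model was 19.6%. Counts, ratios and shares over all protein-coding transcripts under these settings are not given. Nothing particular to the family is therefore read from these shifts. The median degradation half-life of 12.7 min became 24.6 min with leakage subtracted, 4.78 min with both variables left free where no exact solution existed, and 38.7 min with the second library read as total RNA. The median processing half-life of 3.81 min became 1.82 min with both variables free, 5.27 min without transcripts lacking a solution, and 2.97 min with total RNA. The cause of these shifts was not tested. The other 44 alternative values of these summaries stayed within 1.5 times for counts and within the 95% interval of the reported value otherwise. None changed sign. For a median or a share, that interval was computed as if the members were independent. Isoforms of a gene share exons, so the interval does not measure replicate spread. Unknown depth, 1 library per pool and reads shared among isoforms and copies limit every ratio.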
